A study of Mus musculus with 12 samples.

Results

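The genes described here are 43 mouse genes of DNA replication and of its licensing step, read in the bone marrow of Fanconi anemia mice. They were chosen by name, from the origin recognition complex to the enzymes that supply nucleotides, and 42 of them had a probe set that carries their symbol alone. Chaf1a had none. Each gene was represented by its brightest such probe set, and 41 genes were bright enough to be tested, out of 11908 genes tested and 18193 genes named on the array. The values are log2 signals of a 1-colour expression array, so a difference of 1.00 would be a doubling of signal.

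The study hybridised 12 arrays, with 3 marrow samples in each of 4 genotypes: wild type C57Bl/6, Fancc-/-, Fancg-/- and the double knockout Fancc-/-//Fancg-/-. Whole marrow from the tibia and femur was used without fractionation or culture, and the RNA of different marrow samples was kept apart. That each sample came from 1 mouse is stated for wild type alone. The labels name no treatment and give neither the age nor the sex of the animals, nor the strain background of the knockouts. The number of arrays limits the precision of every value.

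Before each S phase the origin recognition complex marks sites on DNA, and Cdc6 and Cdt1 help it to load the ring-shaped MCM helicase there; geminin, encoded by Gmnn, holds Cdt1 in check so that no site is loaded again in the same cycle. Cdc45 and the GINS complex turn the loaded ring into an active helicase, and the polymerases, the sliding clamp and the ligase then copy the strands. Fancc and Fancg are subunits of the Fanconi core complex, which acts when a replication fork meets a crosslink between the strands, and the replicating cells of marrow include erythroid, myeloid and lymphoid precursors.

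Some libraries stood apart in ways that touch the results. Xist, which is transcribed from the inactive X chromosome, read 11.30 to 12.23 in wild type and 11.19 to 12.13 in Fancc-/-, but 5.99 to 7.39 in the double knockout, where the Y-linked gene Eif2s3y read 8.81 to 9.35. Between double knockout and wild type mice, genotype and sex cannot be told apart. The libraries labelled Fancg-/- read 11.31, 7.34 and 10.75 for Xist and 7.64, 9.09 and 5.78 for Eif2s3y, so replicates 1 and 3 carried both marks. Fancg itself read 6.80 to 6.86 in wild type, 5.61 to 5.83 in the double knockout, and 6.55, 6.00 and 6.64 in the libraries labelled Fancg-/-; where its probes lie relative to the deletion is not given in the sources used here. The brightest Fancc probe set read 5.90 to 6.18 in wild type and 5.96 to 6.17 in Fancc-/-. Another read 5.69 to 5.87 in Fancc-/-, above wild type at 5.25 to 5.35, while the double knockout lay at 5.28 to 5.45. A further probe set overlapped between Fancc-/- and wild type. None had a lower mean in Fancc-/- than in wild type. Where these probes lie relative to the deletion is not given either, so they do not settle the labels.

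Among the role groups with more than 1 gene, origin recognition and licensing had the highest median change against wild type in Fancc-/- and the double knockout, and Orc1 led it. In Fancg-/- its median of 0.27 was close to the 0.25 of nucleotide supply, and without the library labelled Fancg-/- replicate 3 the medians were 0.23 and 0.30. Orc1, the ATPase subunit of the origin recognition complex, rose 1.78-fold in Fancc-/- and 2.09-fold in double knockout mice. Orc6, another subunit of that complex, rose 1.53-fold in the double knockout, as did Chaf1b, a subunit of the chromatin assembly factor that places histones behind the fork, by 1.51-fold. The 6 MCM helicase genes, Pcna and the other polymerase and nucleotide genes did not pass the test in any genotype.

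In counts, 1 of 41 genes rose in Fancc-/- and 0 fell, where 2.18% of all genes tested rose and 2.36% fell (limma, Benjamini-Hochberg adjusted p below 0.05 over 11908 genes). In the double knockout 3 of 41 rose and 0 fell, where 2.27% of all genes rose and 3.01% fell. The Fancc-/- count is near its background, and that of the double knockout rests on Orc1, Orc6 and Chaf1b. The Xist level separates double knockout from wild type arrays without overlap, so as a covariate it cannot tell sex from genotype. With it 0 of 41 passed in the double knockout, where 0 of all genes passed as well. That background depends on single arrays: of all genes tested, 270 rose and 359 fell in the double knockout, 11 and 5 without wild type replicate 2, 12 and 7 without double knockout replicate 3, and 788 and 1065 without double knockout replicate 1. In Fancg-/- limma called 0 of 41, against 0.0504% of all genes, and 3 of 41 (Orc1, Orc6 and Chaf1b) had an unadjusted p below 0.05, against 7% of all genes. The median change over the 41 genes was 0.09 in Fancc-/-, 0.11 in Fancg-/- and 0.15 in double knockout mice, where the median over all genes tested was -0.01, 0.01 and -0.01. Positive changes numbered 27, 35 and 34 of 41 in that order, beside 48.4%, 52.3% and 47.8% of all genes.

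Those counts rest on few arrays. In Fancc-/- the median was 0.05 without wild type replicate 3 or Fancc-/- replicate 1 and 0.20 without Fancc-/- replicate 3, and with probe sets unique to a gene 20 of 35 changes were positive. Without wild type replicate 3 the positive changes in Fancg-/- dropped to 27 of 41, and without replicates 1 and 3 of the libraries labelled Fancg-/- they were 31 of 41. The 3 comparisons share the wild type arrays, so their directions are not independent of each other. In whole marrow, more cells of a type and more RNA per cell cannot be told apart.

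**Figure D1:**
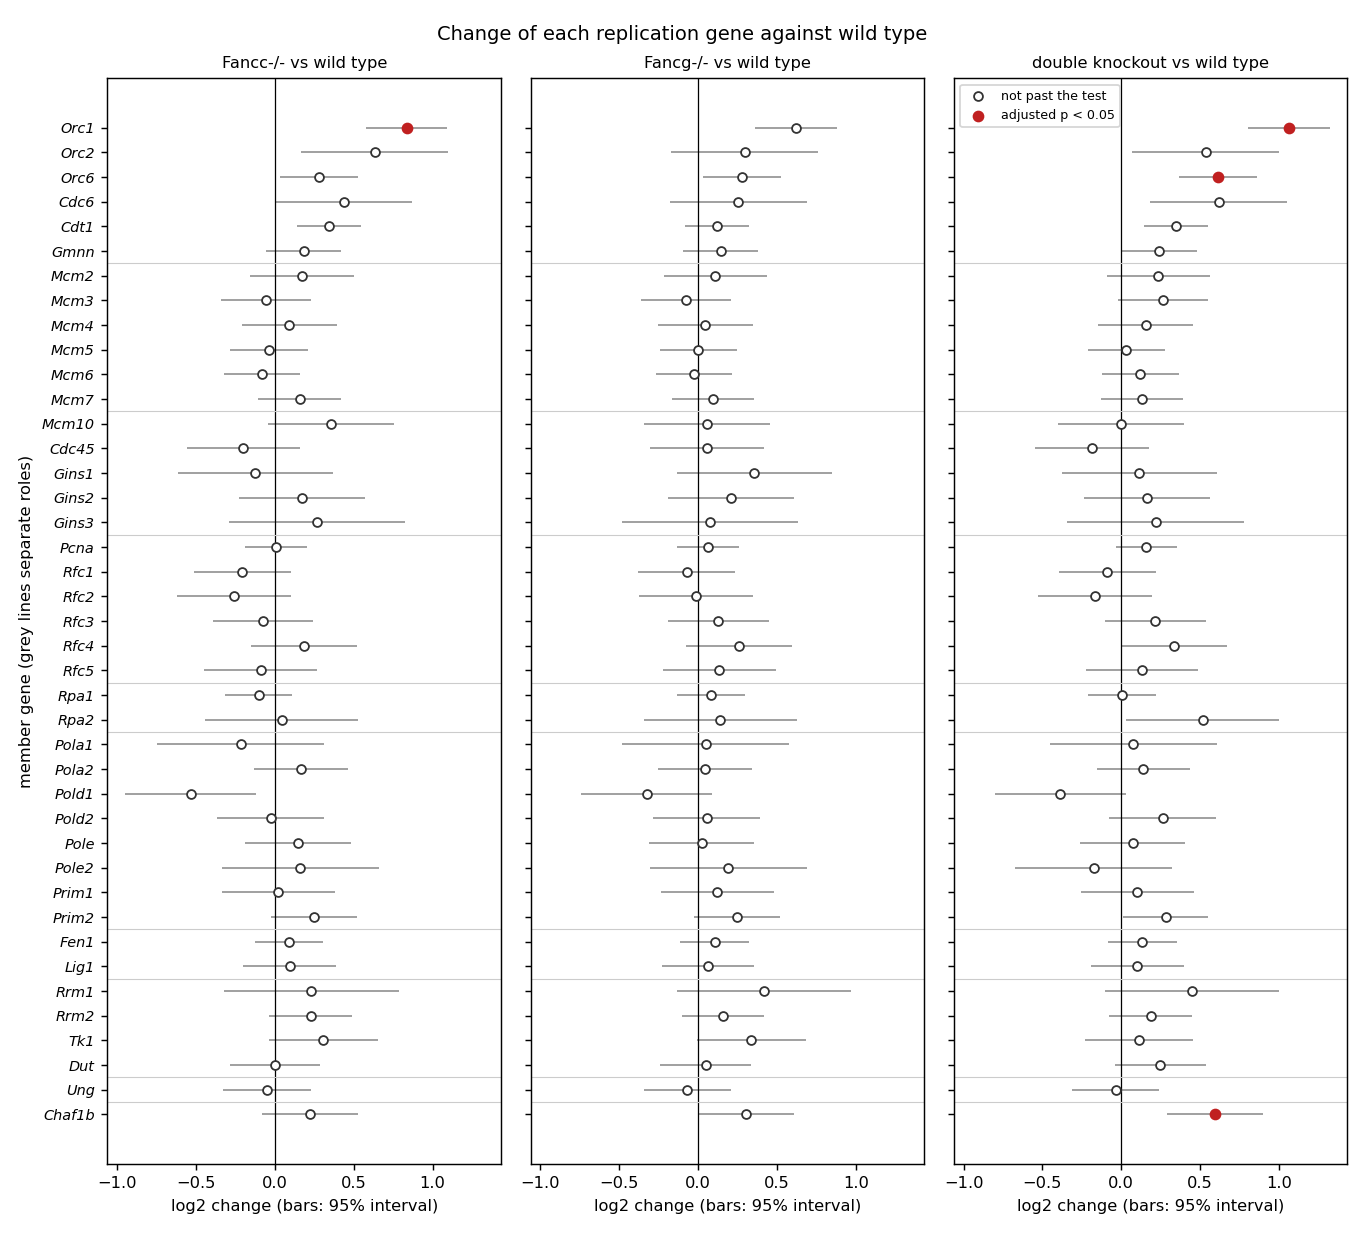
Log2 change of each of the 41 genes tested (rows, ordered by role) against wild type in Fancc-/-, Fancg-/- and the double knockout; points are limma estimates from 3 arrays a group, bars their 95% intervals, and filled red points passed an adjusted p of 0.05. The licensing genes in the top block sit to the right of 0 in every panel, with Orc1 at 0.84, 0.62 and 1.06.

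Orc1 read 6.65, 6.86 and 6.70 in the wild type mice, 7.61, 7.68 and 7.43 in Fancc-/-, 7.45, 7.26 and 7.36 in Fancg-/-, and 7.77, 7.73 and 7.89 in double knockout mice. Every knockout array lay above every wild type array, and the double knockout arrays lay above all others. The change was 0.84 ± 0.12 (SE) in Fancc-/-, with an adjusted p of 0.00323 by limma, and 1.06 ± 0.12 in double knockout mice, with an adjusted p of 0.00382. In Fancg-/- it was 0.62 ± 0.12 and did not pass, with an adjusted p of 0.129.

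The deviations of same-numbered wild type and Fancc-/- arrays correlated weakly, at 0.16, 0.15 and 0.16. The Orc1 change in Fancc-/- was therefore also fitted with the replicate number as a block. Its adjusted p by limma was then 0.00884 with all 12 arrays and 0.0555 with the wild type and Fancc-/- arrays alone. A dimmer Orc1 probe set read 6.31, 6.86 and 6.67 in wild type and 7.28, 6.99 and 7.04 in double knockout mice, a mean difference of 0.49. It was 0.30 higher in Fancc-/- and 0.19 higher in Fancg-/-, where the library labelled replicate 3 read 6.35, within the wild type range.

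Orc6 read 8.67, 8.51 and 8.40 in wild type and 9.03, 9.14 and 9.25 in double knockout mice. Fancc-/- read 8.82, 8.86 and 8.75, and Fancg-/- read 8.79, 8.74 and 8.88. All 9 knockout arrays lay above wild type, and the single knockouts fell between wild type and the double knockout. The double knockout change of 0.61 ± 0.11 passed with an adjusted p of 0.0177 by limma, while those of 0.28 ± 0.11 in each single knockout did not, with adjusted p of 0.196 and 0.645. Without wild type replicate 2, wild type replicate 3, double knockout replicate 2 or double knockout replicate 3, the adjusted p in the double knockout was 0.0714, 0.0750, 0.0619 or 0.0923.

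Cdt1, the loader that brings the MCM ring to origins, read 11.09, 11.08 and 10.99 in wild type, 11.39, 11.55 and 11.26 in Fancc-/-, 11.14, 11.27 and 11.11 in Fancg-/-, and 11.30, 11.45 and 11.46 in double knockout mice. It was the remaining gene with all 9 knockout arrays above all wild type arrays, a pattern held by 3 of 41 genes and by 2.44% of all genes tested; 0 of 41 lay below throughout, against 3.7%. Its changes of 0.34 ± 0.09 in Fancc-/- and 0.35 ± 0.09 in double knockout mice fell just short of the test, with adjusted p of 0.0602 and 0.0518 by limma, and that in Fancg-/- was 0.12. Without Fancc-/- replicate 3 the Fancc-/- value passed at an adjusted p of 0.0285, and without double knockout replicate 1 the double knockout value passed at 0.0222.

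Cdc6, the ATPase that joins the origin complex to the helicase loader, read 9.06, 9.02 and 8.77 in wild type and 9.37, 9.63 and 9.71 in double knockout mice. Fancc-/- read 9.66, 9.66 and 8.84, so replicate 3 lay in the wild type range and the other arrays well above it, and Fancg-/- read 9.17, 9.15 and 9.30. The changes were 0.44 ± 0.20, 0.26 ± 0.20 and 0.62 ± 0.20 in Fancc-/-, Fancg-/- and the double knockout, and the adjusted p in the double knockout was 0.0878 by limma.

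Orc2, a further origin recognition subunit, read 7.84, 7.17 and 7.46 in wild type, 8.37, 7.65 and 8.35 in Fancc-/-, 7.76, 7.94 and 7.66 in Fancg-/-, and 8.19, 8.01 and 7.88 in double knockout mice. Wild type and Fancc-/- overlapped, because wild type replicate 1 read above Fancc-/- replicate 2. The changes were 0.63 ± 0.21 in Fancc-/- (adjusted p = 0.125 by limma), 0.29 ± 0.21 in Fancg-/- and 0.54 ± 0.21 in double knockout mice (adjusted p = 0.154). Without Fancc-/- replicate 2 the change in Fancc-/- was 0.87 and its adjusted p 0.0277.

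Gmnn had the smallest changes of the 6 licensing genes in Fancc-/- and the double knockout, 0.18 ± 0.11 and 0.24 ± 0.11. Its wild type arrays read 10.64, 10.38 and 10.36, and those of the double knockout 10.64, 10.79 and 10.67, just clear of wild type. The median change of the 6 genes was 0.39 in Fancc-/-, 0.27 in Fancg-/- and 0.57 in double knockout mice. All 6 were positive in each, and they stayed positive in each of 19 other settings of scaling, probe set, covariate and left-out arrays. Some of these settings leave out only arrays of a genotype outside the comparison, which cannot change its values. With probe sets unique to a gene 5 of the 6 could be read.

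**Figure D2:**
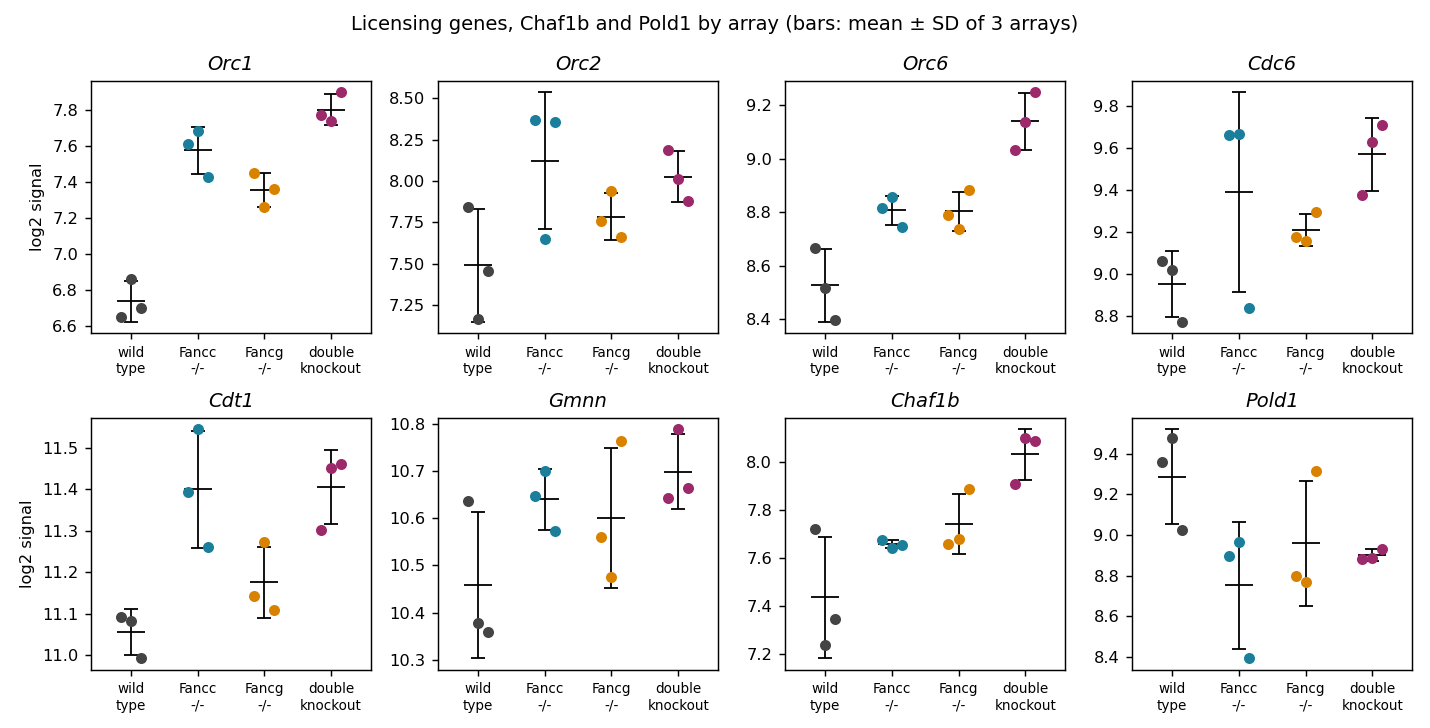
Log2 signal (y axis, scales differ) of the 6 licensing genes, Chaf1b and Pold1 on each array by genotype; points are single arrays and bars the mean ± SD of 3. Orc1 and Orc6 separate all knockout from wild type arrays, the Cdc6 value of Fancc-/- replicate 3 sits at 8.84 beside wild type, and Pold1 runs the other way.

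The promoters of the 3 genes that rose are printed below as 250 bases before the RefSeq start in the mouse build GRCm38.p6, 5′ to 3′ on the gene's strand, because they share a change on the array and can be read for shared words. Capitals mark the words TTTGGCGC, TTTCCCGC, TTTCGCGC and TTTGCCGC, which are forms of the E2F site, and CCAAT, the NF-Y box, on either strand. Orc1 lies at chr4:108579204-108579453, Orc6 at chr8:85299382-85299631 and Chaf1b at chr16:93883651-93883900.
Orc1: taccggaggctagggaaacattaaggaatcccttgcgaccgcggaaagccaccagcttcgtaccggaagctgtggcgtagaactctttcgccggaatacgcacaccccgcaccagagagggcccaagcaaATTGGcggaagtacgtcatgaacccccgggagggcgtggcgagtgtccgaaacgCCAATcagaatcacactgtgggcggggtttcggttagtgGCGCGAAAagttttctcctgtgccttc
Orc6: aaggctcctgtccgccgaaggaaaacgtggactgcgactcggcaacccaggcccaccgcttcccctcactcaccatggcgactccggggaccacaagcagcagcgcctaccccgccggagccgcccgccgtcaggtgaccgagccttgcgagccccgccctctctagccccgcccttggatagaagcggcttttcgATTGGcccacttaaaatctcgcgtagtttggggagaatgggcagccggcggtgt
Chaf1b: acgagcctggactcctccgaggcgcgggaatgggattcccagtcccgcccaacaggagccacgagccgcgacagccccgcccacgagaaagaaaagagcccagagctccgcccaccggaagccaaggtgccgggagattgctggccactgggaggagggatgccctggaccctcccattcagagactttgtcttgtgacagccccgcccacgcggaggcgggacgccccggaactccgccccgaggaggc
In these windows Orc1 held 1 E2F word, which begins 27 bases before the start, and CCAAT at 120 and 66 bases before it. Orc6 held CCAAT at 54 bases before the start and no E2F word, and Chaf1b held neither.

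The E2F words of the other loading factors are shown in 30-base windows for comparison with that of Orc1. The Cdc6 word begins 138 bases before the start (chr11:98908002-98908031), and the Cdt1 word begins at base 33 after it (chr8:122568035-122568064).
Cdc6: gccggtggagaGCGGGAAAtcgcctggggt
Cdt1: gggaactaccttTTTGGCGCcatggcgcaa
RefSeq promoters from 250 bases before to 50 after the start were matched for 36 of the 43 genes, as 42 promoters. An E2F word was found in 13 of 42, or 31%, against 2.26% of 32851 promoters of the same length, and CCAAT in 24 of 42, or 57.1%, against 37.4%. The genes with the word were Orc1, Cdc6, Cdt1, Mcm3, Mcm5, Mcm6, Mcm7, Gins3, Rfc3, Pola1, Pold1, Pole2 and Lig1.

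The median changes of genes with and without the word lay close together. Of genes tested, 13 with and 21 without it had medians of 0.09 and 0.09 in Fancc-/-, 0.07 and 0.11 in Fancg-/-, and 0.13 and 0.16 in double knockout mice. Orc1 and Pold1 both hold it and had the highest and the lowest change of the 41 genes in Fancc-/-. A matched word is a match of letters only.

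The 6 genes of the MCM ring, the helicase that the licensing factors load, changed little. Their changes ran from -0.08 (Mcm6) to 0.17 (Mcm2) in Fancc-/-, from -0.07 (Mcm3) to 0.11 (Mcm2) in Fancg-/-, and from 0.03 (Mcm5) to 0.27 (Mcm3) in the double knockout. The 95% intervals of single genes reached from -0.34 to 0.50, from -0.36 to 0.44 and from -0.21 to 0.56, and changes of the size of Orc1 lie outside them. limma called 0 of 6 in each comparison, and 0 of 6 had an unadjusted p below 0.05. Of all genes tested, 19.8% in Fancc-/- and 24.2% in double knockout mice had one, and of the 41 genes here 5 and 10.

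Mcm3 read 10.11, 10.16 and 10.00 in wild type and 10.35, 10.46 and 10.26 in double knockout mice. These arrays did not overlap, and neither did those of Mcm2, at 10.23, 10.25 and 9.95 against 10.56, 10.26 and 10.32. Over all 41 genes, 13 were higher without overlap in the double knockout and 2 were lower, beside 12.5% and 16.9% of all genes tested. The same counts were 3 and 1 in Fancc-/-, beside 11.1% and 13.1%, and 6 and 0 in Fancg-/-, beside 8.67% and 8.61%. Mcm7 and Mcm4 overlapped wild type in each genotype, and in Fancc-/- replicate 3 all 6 MCM genes lay below their wild type mean.

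Genes that activate the helicase also did not pass. Mcm10, which helps the loaded ring to unwind DNA, was highest in Fancc-/- at 0.36 ± 0.18, with arrays of 8.58, 8.42 and 7.85 against 8.06, 7.95 and 7.76. Gins1, a GINS subunit, was highest in Fancg-/- at 0.36 ± 0.23, where its arrays of 8.20, 8.30 and 8.53 lay just above wild type at 8.18, 7.92 and 7.86. In Fancc-/- the same gene spread from 7.36 to 8.38.

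Cdc45, the partner that makes the helicase active, read 7.97, 7.93 and 7.85 in wild type and 7.83, 7.80 and 7.57 in double knockout mice, lower without overlap at -0.18 ± 0.17. Its Fancc-/- arrays were 7.93, 7.93 and 7.29, so 1 array set that mean. On a dimmer Cdc45 probe set the double knockout overlapped wild type, at 6.18, 6.09 and 6.06 against 6.00, 6.21 and 6.17. Gins3 had the highest change of this group in the double knockout, 0.22 ± 0.26, and Mcm10 the lowest of it in Fancg-/-, 0.05 ± 0.18.

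The sliding clamp Pcna read 12.64, 12.49 and 12.59 in wild type and 12.79, 12.70 and 12.70 in double knockout mice. The arrays did not overlap, yet the change of 0.16 ± 0.09 did not pass, and it was 0.01 and 0.06 in the single knockouts. Among the clamp loader subunits Rfc4 was highest in each genotype, at 0.19 in Fancc-/-, 0.26 in Fancg-/- and 0.34 ± 0.15 in double knockout mice, with an adjusted p of 0.206 by limma in the last. Rfc2 was lowest in Fancc-/- and the double knockout, at -0.26 and -0.17, and its Fancc-/- replicate 3 read 9.58 against 10.16 to 10.46 in wild type. Rfc1, the large subunit, was lowest in Fancg-/-, at -0.07.

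Rpa2, a subunit of the single-strand binding protein, read 8.95, 8.16 and 8.65 in wild type and 8.88, 9.22 and 9.21 in double knockout mice. Wild type replicate 1 reached above double knockout replicate 1, and the change of 0.52 ± 0.22 had an adjusted p of 0.181 by limma. Rpa1, its large partner, moved by -0.10, 0.08 and 0.00 in Fancc-/-, Fancg-/- and the double knockout, with 95% intervals within -0.32 and 0.30.

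Pold1, the catalytic subunit of polymerase delta, was the lowest of all 41 genes in each knockout. It read 9.36, 9.48 and 9.03 in wild type, 8.90, 8.97 and 8.39 in Fancc-/-, 8.80, 8.77 and 9.32 in Fancg-/-, and 8.88, 8.89 and 8.93 in double knockout mice. On this brightest probe set Fancc-/- and the double knockout lay below wild type without overlap, whereas Fancg-/- replicate 3 lay within it. The changes of -0.53 ± 0.19, -0.33 ± 0.19 and -0.39 ± 0.19 did not pass, with adjusted p of 0.143, 0.834 and 0.241 by limma. A dimmer Pold1 probe set read 8.95, 8.83 and 8.61 in wild type and 8.41, 8.45 and 8.56 in Fancg-/-. Every knockout array lay below wild type on it, with mean differences of -0.56, -0.32 and -0.43.

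The other polymerase and primase genes lay closer to wild type. Prim2, the large primase subunit, was the highest of the group in each genotype at 0.25, 0.25 and 0.28, with an adjusted p of 0.194 by limma in the double knockout, and its double knockout arrays of 8.54, 8.43 and 8.34 lay just above wild type at 8.34, 8.18 and 7.96. Pola1, the catalytic subunit of polymerase alpha, read 8.92, 8.75 and 7.80 in Fancc-/- against 8.74, 8.68 and 8.71, so its change of -0.22 ± 0.24 came from 1 array. Pole, Pole2, Pold2, Pola2 and Prim1 ranged from -0.17 to 0.26 over the 3 comparisons. Fen1 and Lig1, the flap nuclease and the ligase that finish Okazaki fragments, ranged from 0.06 to 0.13.

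Nucleotide supply genes had medians of 0.23, 0.25 and 0.22, and all 4 tested were positive in each genotype. Rrm1, the large subunit of ribonucleotide reductase, had the highest change in Fancg-/- and the double knockout, 0.42 ± 0.25 and 0.45 ± 0.25. On this probe set it was also the most variable of the 41 genes within a genotype, with a pooled SD of 0.36. Wild type replicate 2 and Fancc-/- replicate 2 read 9.89 and 9.98 where the other arrays read 10.40 to 10.97. Another bright Rrm1 probe set read 10.51, 10.35 and 10.25 in wild type and 10.81, 10.57 and 10.55 in double knockout mice, without overlap. Its differences from wild type were 0.14, 0.17 and 0.27 in Fancc-/-, Fancg-/- and the double knockout. Tk1, the thymidine kinase of S phase, was highest in Fancc-/- at 0.31 ± 0.16 and read 9.67, 9.65 and 9.69 in Fancg-/-, just above wild type at 9.65, 9.12 and 9.23, for a change of 0.34 ± 0.16.

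Dut, which removes dUTP, was lowest in Fancc-/- and Fancg-/- at 0.00 and 0.05, and its double knockout arrays of 10.18, 10.21 and 10.24 lay above wild type at 10.09, 10.01 and 9.79. Rrm2, the small reductase subunit, differed from wild type by 0.23, 0.16 and 0.19 on its brightest probe set, by 0.15, 0.38 and 0.50 on the second and by 0.00, 0.12 and 0.07 on the third. The second read 10.81, 10.58 and 10.73 in wild type and 11.36, 11.23 and 11.03 with both genes lost, without overlap. Tyms, the thymidylate synthase, was below the array median with means of 4.28 ± 0.17, 4.41 ± 0.33, 4.42 ± 0.31 and 4.28 ± 0.06 (SD, n = 3) in wild type, Fancc-/-, Fancg-/- and the double knockout, and was not tested. Ung, the glycosylase that cuts uracil out of DNA, moved by -0.05, -0.07 and -0.04.

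Chaf1b read 7.72, 7.24 and 7.35 in wild type, 7.68, 7.64 and 7.66 in Fancc-/-, 7.66, 7.68 and 7.89 in Fancg-/-, and 7.91, 8.10 and 8.08 in double knockout mice. The double knockout lay above every other array, and wild type replicate 1 lay among the single knockouts. The change was 0.22 ± 0.14 in Fancc-/-, 0.30 ± 0.14 in Fancg-/- and 0.59 ± 0.14 in double knockout mice, where its adjusted p was 0.0364 by limma. Without wild type replicate 2, wild type replicate 3, double knockout replicate 2 or double knockout replicate 3 that p was 0.128, 0.124, 0.138 or 0.143, and with the replicate number as a block it was 0.0552.

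Between the knockouts, limma called 0 of 41 genes in any comparison. Genotype and sex cannot be told apart between the double knockout and Fancc-/-. Against Fancc-/- the double knockout was higher by 0.33 ± 0.11 for Orc6, 0.37 ± 0.14 for Chaf1b and 0.32 ± 0.13 for Mcm3, with adjusted p of 0.154, 0.182 and 0.209, and these were the 3 genes with an unadjusted p below 0.05, which 19.7% of all genes had; 0.0084% of all genes were called. Against Fancg-/- it was higher by 0.44 ± 0.12 for Orc1, 0.34 ± 0.11 for Orc6, 0.34 ± 0.13 for Mcm3 and 0.23 ± 0.09 for Cdt1, the 4 genes with an unadjusted p below 0.05, beside 14.4% of all genes. Their adjusted p were 0.178, 0.229, 0.267 and 0.289, and 0% of all genes were called there. Without double knockout replicate 1 the calls among all genes numbered 993 against Fancg-/- and 1285 against Fancc-/-, where all 12 arrays gave 0 and 1.

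Fancg-/- against Fancc-/- had 1 gene with an unadjusted p below 0.05, Cdt1 at -0.22 ± 0.09 (adjusted p = 0.516 by limma), beside 9.04% of all genes, and 0.109% of all genes were called. Gins1 followed at 0.48 ± 0.23 and Rpa1 at 0.18 ± 0.10. The interaction, which is the double knockout change less the sum of both single changes, had 2 genes with an unadjusted p below 0.05, Tk1 at -0.53 ± 0.22 and Orc1 at -0.39 ± 0.17, with adjusted p of 0.299 and 0.306; 14.9% of all genes had such a p and 0.0084% were called. The double knockout change of Orc1, 1.06, was thus smaller than the sum of the single changes on its brightest probe set, but not past the test. The dimmer Orc1 probe set changed by 0.30, 0.19 and 0.49 in Fancc-/-, Fancg-/- and the double knockout, and its interaction was not tested. By p, Mcm3 came next in the interaction at 0.40 ± 0.19. The groups in the interaction also differed in the sex-linked genes.

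The genes varied together within genotypes, most of all in 1 array. Fancc-/- replicate 3 was the lowest of the 12 arrays for 18 of 41 genes, wild type replicate 3 for 11 and wild type replicate 2 for 6. The median deviation from the wild type mean was 0.13, 0.01 and -0.12 on the wild type arrays, 0.24, 0.15 and -0.15 in Fancc-/-, 0.11, 0.14 and 0.15 in Fancg-/-, and 0.22, 0.14 and 0.14 in double knockout mice. The spread of wild type and Fancc-/- thus exceeded the distance between the group medians.

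On Fancc-/- replicate 3, 5 of 6 licensing genes lay above their wild type mean and Cdc6 below it, with a median deviation of 0.21, where the 6 MCM genes had -0.25. Over all 41 genes 11 lay above it on that array, among them Rrm1, Chaf1b and Rpa2. Without that array, 33 of 41 genes were positive in Fancc-/-, and Cdc6 and Cdt1 passed the test beside Orc1. On their brightest probe sets Orc2, Rpa2 and Rrm1 shared another pattern, with low values on wild type replicate 2 and Fancc-/- replicate 2. These were 7.17 and 7.65 for Orc2, 8.16 and 8.16 for Rpa2, and 9.89 and 9.98 for Rrm1. Other probe sets did not all share it. Another bright Rrm1 probe set read 10.35 and 10.52 on those arrays, between the other replicates. A dimmer Orc2 probe set was low there, at 5.65 and 6.05, and another was not, at 6.64 and 6.94. The other Rpa2 probe set read 8.36 on wild type replicate 2 and 8.33 on replicate 3. The median pooled SD within genotypes was 0.17 over the 41 genes and 0.19 over all genes tested.

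Probe sets of a gene did not always point the same way. For 25 of the 41 genes more than 1 probe set was bright, and all of them had the same sign of change in 16 genes in Fancc-/-, 19 in Fancg-/- and 24 in double knockout mice. The exception in the double knockout was Dut. In Fancc-/- the 9 genes whose probe sets disagreed were Cdc45, Dut, Gins2, Gins3, Mcm3, Mcm6, Mcm7, Prim2 and Rfc4, and in Fancg-/- the 6 were Dut, Mcm3, Mcm5, Mcm7, Prim2 and Rfc2. Of the licensing genes Orc1, Orc2 and Cdt1 had more than 1 bright probe set and did not disagree, and Orc6, Cdc6 and Gmnn had a single probe set.

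Other genes of replication and of entry into S phase were taken from separate lists. Of 34 tested genes in the list of other replication genes, 1 rose and 2 fell in Fancc-/-, and 1 fell in double knockout mice. Of all genes tested, 2.18% rose and 2.36% fell in Fancc-/-, and 3.01% fell in the double knockout. For Fancg-/- 0 of the 34 were called, beside 0.0504% of all genes. There 1 of the 34 had an unadjusted p below 0.05, beside 7% of all genes. The medians were -0.08, 0.08 and -0.04 in Fancc-/-, Fancg-/- and the double knockout. In Fancg-/- the lowest p were those of Rrm2b at -0.62, Recql4, a helicase of replication start, at 0.24, and Donson, a replisome protein, at 0.30, with adjusted p of 0.442, 0.707 and 0.730 by limma. Pold4, the smallest subunit of polymerase delta, read 8.74, 8.52 and 8.59 in wild type and 7.54, 7.75 and 7.67 in Fancc-/-, far below it without overlap. It fell by 0.97 on the log2 scale in Fancc-/- (adjusted p = 0.00367 by limma) and read 8.17, 8.23 and 8.59 in Fancg-/- and 8.13, 8.43 and 8.31 in double knockout mice.

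Pole3, a histone-fold subunit of polymerase epsilon, rose by 0.59 ± 0.14 in Fancc-/-, from 8.54, 8.12 and 8.20 to 8.96, 8.67 and 8.99, with an adjusted p of 0.0339 by limma. Leaving out 1 array at a time, that p was 0.151 and 0.132 without wild type replicates 2 and 3, and 0.0909 and 0.0758 without Fancc-/- replicates 1 and 3. Rrm2b, the reductase subunit that p53 induces, fell in Fancc-/- by 0.82 ± 0.20 and in the double knockout by 1.10 ± 0.20, with adjusted p of 0.0398 and 0.0176. It read 8.00, 7.51 and 7.32 in wild type, 6.77, 6.94 and 6.67 in Fancc-/-, 6.90, 6.75 and 7.34 in Fancg-/- and 6.76, 6.42 and 6.37 in double knockout mice.

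The adjusted p of Rrm2b in Fancc-/- was 0.0538 with the replicate block and between 0.0503 and 0.117 when any 1 wild type array, Fancc-/- replicate 1 or Fancc-/- replicate 3 was left out. In double knockout mice it was 0.0507 and 0.0607 after wild type replicates 1 and 2 were left out in turn, and 0.0660 and 0.0885 after double knockout replicates 2 and 3. With only the wild type and Fancc-/- arrays and the block, the adjusted p of Pold4 was 0.0543.

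Of 29 genes of G1/S control and E2F, E2f2 and Ccne1 rose in Fancc-/- and in the double knockout. Of all genes tested, 2.18% and 2.27% rose there. E2f2, a transcription factor of the E2F family with a known part in erythroid precursors, read 10.01, 9.98 and 9.76 in wild type, 10.41, 10.76 and 10.85 in Fancc-/-, 10.29, 10.18 and 10.32 in Fancg-/- and 10.54, 10.53 and 10.63 in double knockout mice. All 9 knockout arrays lay above wild type. The change was 0.76 ± 0.12 in Fancc-/- (adjusted p = 0.00629 by limma), 0.35 ± 0.12 in Fancg-/- and 0.65 ± 0.12 in double knockout mice (adjusted p = 0.0179).

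Ccne1, cyclin E1, which starts S phase with Cdk2, read 8.56, 8.40 and 8.21 in wild type, 9.10, 9.01 and 8.76 in Fancc-/-, 8.75, 8.91 and 8.81 in Fancg-/- and 9.01, 9.21 and 9.29 in double knockout mice. It too was higher on all 9 knockout arrays, by 0.57 ± 0.14 in Fancc-/- (adjusted p = 0.0349 by limma), 0.43 ± 0.14 in Fancg-/- and 0.78 ± 0.14 in double knockout mice (adjusted p = 0.0160). The E2f2 call in Fancc-/- was lost in the fit of the wild type and Fancc-/- arrays alone, with an adjusted p of 0.0526, and of 0.103 with the replicate block there. In Fancg-/- limma called 0 of 29, and 2 had an unadjusted p below 0.05, beside 7% of all genes. Ccne1, E2f2 and Cdkn2c, a CDK inhibitor at 0.27, had adjusted p of 0.399, 0.546 and 0.715 there. With the replicate block the adjusted p of Ccne1 in Fancc-/- was 0.0534. Leaving out wild type replicate 2 or 3, or double knockout replicate 2 or 3, the p of both genes in the double knockout lay between 0.0580 and 0.0922; in Fancc-/- that of Ccne1 was 0.111 and 0.146 without wild type replicates 2 and 3, and 0.0970 and 0.0694 without Fancc-/- replicates 1 and 2.

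**Figure D3:**
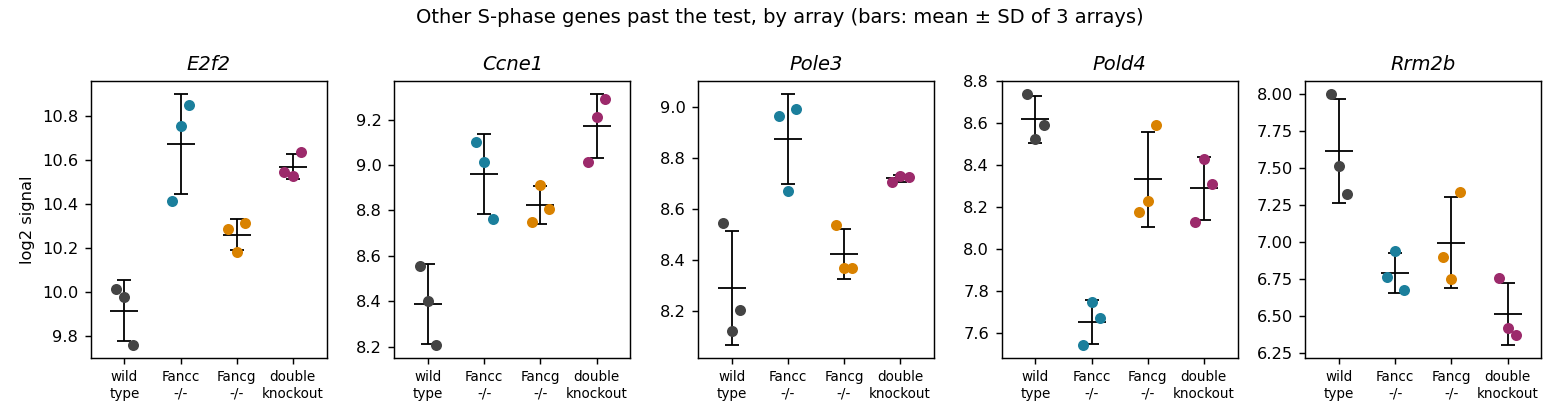
Log2 signal (y axis, scales differ) of E2f2, Ccne1, Pole3, Pold4 and Rrm2b on each array by genotype; points are single arrays and bars the mean ± SD of 3. E2f2 and Ccne1 are above wild type on all 9 knockout arrays, and Pold4 is lowest in Fancc-/- at 7.54 to 7.75.

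Markers of dividing cells did not move the same way in each knockout. Of 15 tested proliferation markers, among them Mki67 and Top2a, limma called 0 in each genotype against wild type. In Fancc-/-, Fancg-/- and the double knockout 0, 2 and 2 had an unadjusted p below 0.05, beside 19.8%, 7% and 24.2% of all genes. The median change of the markers was -0.05, 0.18 and -0.22. On the Fancg-/- arrays their median deviation was 0.10, 0.20 and 0.21, with 11, 14 and 12 of 15 above their wild type mean. On the double knockout arrays the median deviation was 0.20, -0.36 and -0.46, so replicate 1 stood apart from the others, while the licensing genes read 0.47, 0.57 and 0.56 there. The proliferation markers and the licensing genes therefore had opposite signs on double knockout replicates 2 and 3.

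Markers of other marrow cells did move with the genotypes. Of 20 tested erythroid genes 15 rose in Fancc-/-, 0 in Fancg-/- and 6 in double knockout mice, with median changes of 1.19, 0.70 and 0.70, and their mean level ranged from 9.26 to 9.58 over wild type arrays, 10.25 to 10.79 over Fancc-/-, 9.95 to 10.20 over Fancg-/- and 9.81 to 10.66 over double knockout arrays. Of 18 B cell genes 15, 0 and 16 fell, with medians of -2.43, -1.44 and -2.25, and mean levels of 8.28 to 8.82, 5.83 to 6.45, 6.34 to 7.91 and 6.24 to 6.44. In Fancg-/- 17 erythroid and 17 B cell genes had an unadjusted p below 0.05, beside 7% of all genes. Of 8 early neutrophil granule genes 1, 0 and 4 fell, of 13 stem and progenitor genes 1, 0 and 3, and of 15 T and NK cell genes 2, 0 and 0. limma called 0 of 10 late neutrophil genes, 0 of 13 monocyte and macrophage genes and 0 of 8 megakaryocyte genes in each genotype. In Fancc-/-, Fancg-/- and the double knockout, 1, 0 and 1 late neutrophil genes had an unadjusted p below 0.05. The counts were 9, 3 and 3 for monocyte and macrophage genes and 0, 1 and 1 for megakaryocyte genes. Of all genes tested 19.8%, 7% and 24.2% had such a p. By adjusted p, 2.18% of all genes rose and 2.36% fell in Fancc-/-, and 2.27% rose and 3.01% fell in the double knockout. In Fancg-/- 0.0504% were called. The part of these cell types in the changes of Orc1, Orc6, Chaf1b, E2f2, Ccne1, Pold4, Pole3 and Rrm2b was not tested.

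**Figure D4:**
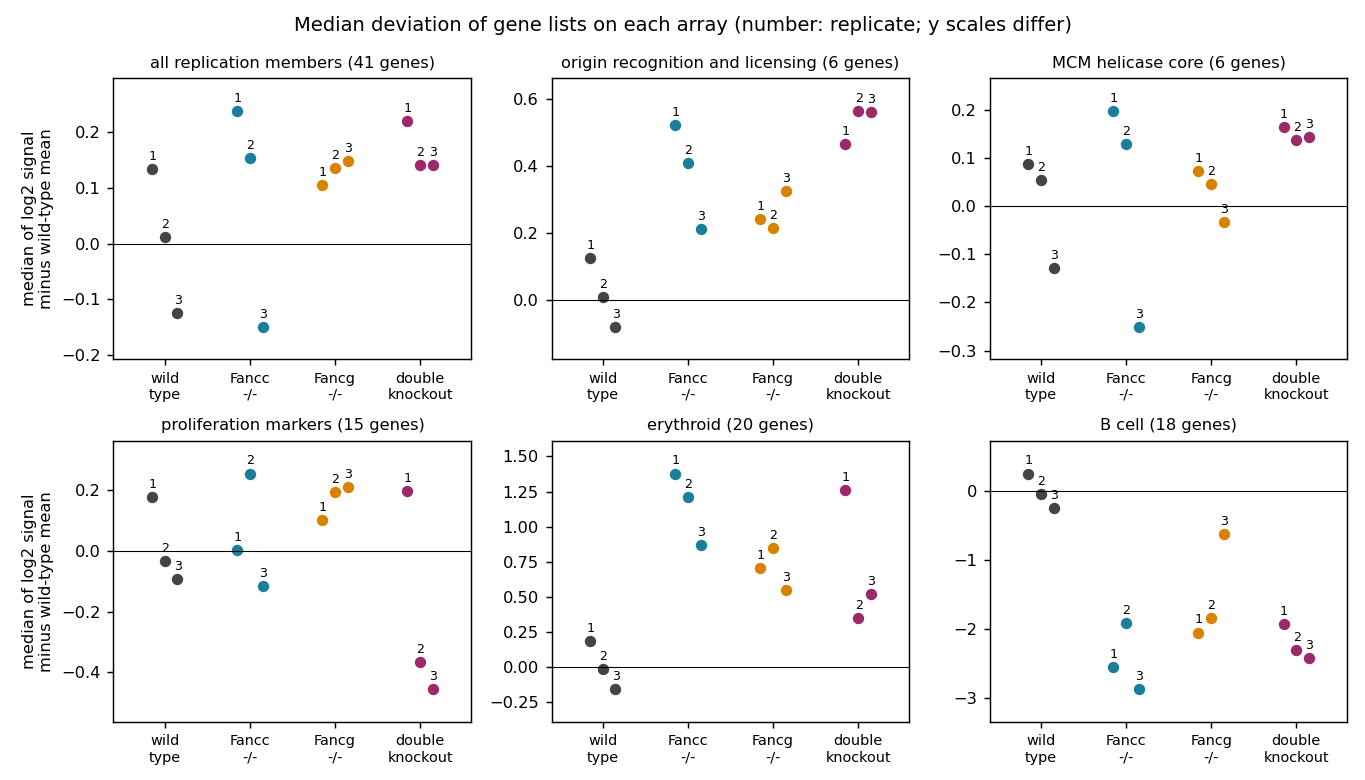
Median over the genes of a list of the log2 signal minus the wild type mean (y axis, scales differ), on each array by genotype, with the replicate number above each point. Licensing genes lie at 0.21 or above on all 9 knockout arrays, the MCM core and the proliferation markers straddle 0, erythroid genes lie above and B cell genes below wild type.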

How the data were processed

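Whole bone marrow RNA in 12 samples was hybridised to 1-colour Affymetrix arrays. The authors deposited log2 signals made with RMA, and Partek is named beside it, per the submitters' processing notes; versions are not given in the sources used here. Per the labels' protocols, RNA input was 2 µg, except 0.91 µg for Fancg-/- replicate 3. Of 45101 probe sets, 64 are controls, 34945 carry 1 symbol in the platform annotation, 932 several and 9160 none. A gene was its brightest probe set with 1 symbol, tested if above the array median on at least 3 arrays.

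All 12 arrays were fitted in limma 3.58.1 (R 4.3.3; lmFit, eBayes with trend), with Benjamini-Hochberg adjustment over 11908 genes, after a check on simulated data. That deposited table gives no scan batch. Marrow samples were separate, per the labels, but are said to be single mice for wild type alone, so p-values measure the spread between these samples.

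The members, gene lists and tests were chosen with earlier results of these data known. Every member past an adjusted or unadjusted p of 0.05 against wild type is named, with the highest and lowest of each role group; in other comparisons and in the lists, those past the threshold or the 3 of lowest p. The check of pairing correlated the deviations of same-numbered arrays from their group means. It gave 0.16, 0.15 and 0.16 for wild type and Fancc-/-, and 0.16, -0.10 and 0.20 for Fancc-/- and the double knockout. Over all 18 pairs it ran from -0.37 to 0.20. Arrays of different numbers were not correlated, and the labels do not say what a number stands for, so pairing is not established. The alternatives changed the scaling, filter, probe sets, covariates, samples and replicate block.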

Additional observations from a re-analysis of the deposited data

Results flagged for a closer look

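Cdc45, the helicase partner, moved in opposite directions in the group means of Fancg-/- and the double knockout, at 0.059 and -0.18 against wild type. Each Fancg-/- array, at 7.94, 7.92 and 8.06, lay above the wild type mean of 7.92, and each double knockout array, at 7.83, 7.80 and 7.57, lay below it. The opposition of these signs was not tested. The double knockout was lower than Fancg-/- by 0.24 on this brightest probe set, which did not pass in limma. A dimmer Cdc45 probe set differed from wild type by 0.06 in Fancg-/- and -0.01 in the double knockout. On it Fancg-/- replicates 1 and 3 read 6.12 and 5.99, below the wild type mean of 6.13, and double knockout replicate 1 read 6.18, above it.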

How the results depend on the processing

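Of 41 genes, the count past the test in Fancc-/- (1, Orc1) was 2 after quantile normalisation, 3 with array weights, and 0 with the replicate block in the wild type and Fancc-/- arrays alone, a fit chosen after seeing the data; leaving out 1 array at a time gave 1 to 3. With array weights it was 1 in Fancg-/- (Orc1, main 0) and 9 in the double knockout (main 3); there the Xist covariate left 0, and leaving out 1 array gave 1 to 5, with Orc1 alone without wild type replicate 2 or 3 or double knockout replicate 2 or 3. Array weights also gave 1 gene (Pole2) against Fancc-/-, 5 against Fancg-/- and 2 (Pole2, Tk1) in the interaction, where the unweighted fit gave 0. The cause of these shifts was not tested. In the double knockout the Xist covariate cannot tell sex from genotype, because Xist separates its arrays from wild type.

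The median change in Fancc-/- (0.093) was 0.032 with probe sets unique to a gene and 0.046 to 0.20 leaving out 1 array. That in Fancg-/- (0.11) was 0.072 with the mean of a gene's probe sets, 0.075 with probe sets unique to a gene, 0.13 with weights and 0.14 without replicates 1 and 3, and 0.044 to 0.16 leaving out 1 array. That in the double knockout (0.15) was 0.20 with the Xist covariate and 0.085 to 0.21 leaving out 1 array. All gene counts moved too: 540 in Fancc-/- ranged from 160 to 755, 629 in the double knockout from 0 (Xist covariate) and 16 (without wild type replicate 2) to 3382 (array weights), and 6 in Fancg-/- from 0 to 277 (array weights). Array weights gave 2250 against Fancg-/- and 1727 against Fancc-/- in the double knockout, and in Fancc-/- quantile normalisation raised the share of higher calls from 48.0% to 59.2%. The block over 12 arrays ended the calls of Chaf1b (adjusted p by limma 0.0552), and of Rrm2b and Ccne1 in Fancc-/- (0.0538 and 0.0534), and no other call of a gene named here. Counts have no sign that could reverse, and the 3 median changes stayed positive in every setting compared. Leaving out only arrays of a genotype outside a comparison could not change its median. Replication and licensing genes with an unadjusted p below 0.05 by limma against wild type kept their sign. So did E2f2, Ccne1, Pold4, Pole3 and Rrm2b in the genotypes where they were called. The other genes named here, such as Mcm3, Cdc45 and Dut, were not in this comparison. Signal near background limits Tyms.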
